A study of Drosophila melanogaster with 3 samples.

Results

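Promoter-proximal peaks of CG1602 are binding regions whose summit, the position of highest signal, lies more than 500 and at most 2000 bp from the nearest annotated transcription start site (TSS), on either side and in any annotation class. Of the 4599 peaks in the authors' list thresholded by IDR (irreproducible discovery rate, a filter on agreement between replicates), 961 met this rule, against 2278 promoter peaks (summit within 500 bp of a TSS) and 1360 distal peaks (farther than 2000 bp). The data were chromatin immunoprecipitation with sequencing (ChIP-seq) on whole Drosophila melanogaster embryos of mixed sex, aged 0 to 24 h. The study held 1 group of 3 biological replicates: a transgenic line that stably expressed CG1602 fused at its C-terminus to GFP, precipitated with an antibody against GFP after sonication to a size range of 200 to 800. There was no second condition, and the 3 replicates shared 1 control. The animals were whole embryos that span all of embryogenesis, so a region bound strongly in few cells and another bound weakly in many cannot be told apart. Each peak carries a signal value that the authors computed against the control; its scale is unknown, so it served to rank and compare peaks within a list only.

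CG1602 is predicted from its sequence to be a DNA-binding protein with zinc fingers of the C2H2 kind. In the compact fly genome, DNA a short way from a start site can hold enhancers, second promoters of the same gene and insulators, and the first introns of developmental genes are rich in such elements. Core promoters of broadly active fly genes often carry short sequence elements such as the DRE (bound by DREF) and Motif 1, whereas enhancers carry sites for tissue-specific factors.

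The sequences printed next run from 100 bases before to 100 bases after the summits of the strongest members, the window of every sequence result, read on the plus strand of the RefSeq copy of the dm6 assembly. They are the 5 strongest members outside annotated UTRs and outside an arm not printed here, each named by the gene of its nearest TSS, and capitals mark the bases CACTG and their reverse complement CAGTG. The members near CG11050, Lk6 and CG32772 held 2, 3 and 1 such matches, and those near cbt and Trl held none.
cbt member (chr2L:480976-481176): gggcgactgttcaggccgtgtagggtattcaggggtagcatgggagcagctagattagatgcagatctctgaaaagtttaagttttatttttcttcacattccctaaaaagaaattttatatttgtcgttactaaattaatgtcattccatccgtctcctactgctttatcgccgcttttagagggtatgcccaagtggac
CG11050 member (chr2L:6612625-6612825): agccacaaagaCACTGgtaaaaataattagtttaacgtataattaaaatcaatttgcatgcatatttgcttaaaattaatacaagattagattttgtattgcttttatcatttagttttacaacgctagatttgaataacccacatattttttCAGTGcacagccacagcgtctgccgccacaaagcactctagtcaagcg
Lk6 member (chr3R:11760937-11761137): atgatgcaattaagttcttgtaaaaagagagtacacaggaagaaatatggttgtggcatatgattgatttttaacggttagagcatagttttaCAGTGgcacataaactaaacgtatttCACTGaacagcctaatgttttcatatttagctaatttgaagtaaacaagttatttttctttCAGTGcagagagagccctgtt
CG32772 member (chrX:4910264-4910464): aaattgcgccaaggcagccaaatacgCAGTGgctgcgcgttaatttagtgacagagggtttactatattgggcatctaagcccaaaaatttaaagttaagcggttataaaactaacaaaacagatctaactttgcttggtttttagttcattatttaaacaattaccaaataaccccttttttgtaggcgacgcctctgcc
Trl member (chr3L:14759413-14759613): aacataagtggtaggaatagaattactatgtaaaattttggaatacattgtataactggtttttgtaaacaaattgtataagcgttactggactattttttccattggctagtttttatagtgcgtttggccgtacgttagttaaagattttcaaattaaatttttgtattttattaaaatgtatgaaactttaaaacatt

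The next sequences are the 3 strongest such members with the 8-base word CACTGAGA, in capitals on either strand. They lie near ImpL2, which encodes a secreted antagonist of insulin signalling, near the long non-coding RNA gene lncRNA:CR45937, and near the gustatory receptor gene Gr89a. The word was centred 69 bp to the left of the summit at ImpL2, 77 bp to its right at lncRNA:CR45937 and 36 bp to its right at Gr89a.
ImpL2 member (chr3L:4228279-4228479): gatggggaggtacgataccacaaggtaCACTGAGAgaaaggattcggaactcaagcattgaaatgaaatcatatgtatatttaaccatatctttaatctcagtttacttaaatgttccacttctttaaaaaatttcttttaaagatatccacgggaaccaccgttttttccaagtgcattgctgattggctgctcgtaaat
lncRNA:CR45937 member (chr3L:18235930-18236130): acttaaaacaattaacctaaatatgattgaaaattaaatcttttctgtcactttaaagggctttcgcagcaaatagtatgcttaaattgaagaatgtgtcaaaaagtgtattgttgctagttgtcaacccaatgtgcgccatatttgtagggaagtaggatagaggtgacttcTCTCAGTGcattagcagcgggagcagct
Gr89a member (chr3R:16497470-16497670): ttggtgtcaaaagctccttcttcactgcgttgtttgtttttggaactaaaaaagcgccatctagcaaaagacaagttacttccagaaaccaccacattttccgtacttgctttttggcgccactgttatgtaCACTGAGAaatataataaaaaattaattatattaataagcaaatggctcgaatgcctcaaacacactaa

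The last pair of sequences shows the strongest such members with TTAAAAAA, the 8-base word with the smallest p at member summits, in capitals on either strand. They lie near Baldspot, a fatty acid elongase gene, and near simj, which encodes a subunit of the NuRD chromatin remodelling complex. The word was centred 24 bp from the summit at Baldspot and 6 bp from it at simj.
Baldspot member (chr3L:16660461-16660661): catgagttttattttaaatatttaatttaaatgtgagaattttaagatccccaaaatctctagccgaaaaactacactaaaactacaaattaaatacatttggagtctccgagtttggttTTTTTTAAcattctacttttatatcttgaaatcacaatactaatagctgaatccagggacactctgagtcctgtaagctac
simj member (chr3L:10665713-10665913): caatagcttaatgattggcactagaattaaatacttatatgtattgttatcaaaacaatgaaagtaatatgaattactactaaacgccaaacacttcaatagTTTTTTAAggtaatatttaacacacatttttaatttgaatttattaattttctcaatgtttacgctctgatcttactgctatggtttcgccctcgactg

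Proximal peaks were 20.9% of CG1602 peaks, and their density lay between those of promoters and distal DNA. The 95% Clopper-Pearson interval of the share was 19.7 to 22.1%. In equally long lists of the strongest regions of each replicate the share was 21.9% in replicate 1, 21.0% in replicate 2 and 20.4% in replicate 3, a mean of 21.1% ± 0.774 (SD, n = 3). All 3 replicate values lay inside that interval. The bases at this distance from a TSS are 24.1% of the main arms, and they held 29.9 peaks per Mb (95% Poisson interval 28.0 to 31.8), against 127 per Mb within 500 bp of a TSS and 16.3 per Mb beyond 2000 bp.

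Inside the zone the density was highest next to the inner limit and lowest next to the outer one. It was 38.1 peaks per Mb (interval 33.6 to 42.9) from 500 to 750 bp, 30.9 from 1000 to 1250 bp and 24.2 (interval 19.6 to 29.5) in the last 250 bp. The median distance was 1033 bp (quartiles 722 and 1408). The profile around the TSS was not symmetric. Upstream, the number of IDR summits per 100 bp fell without a gap from 708 between 100 and 200 bp to 82 between 500 and 600 bp. Downstream it first dropped to 28 between 200 and 300 bp and then rose to 65 between 500 and 600 bp, the first bin of the proximal zone. It stayed between 32 and 50 per 100 bp from 600 to 1300 bp downstream. The 961 members thus joined the flank of the promoter peak on the upstream side and a separate shoulder on the downstream side.

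**Figure D1:**
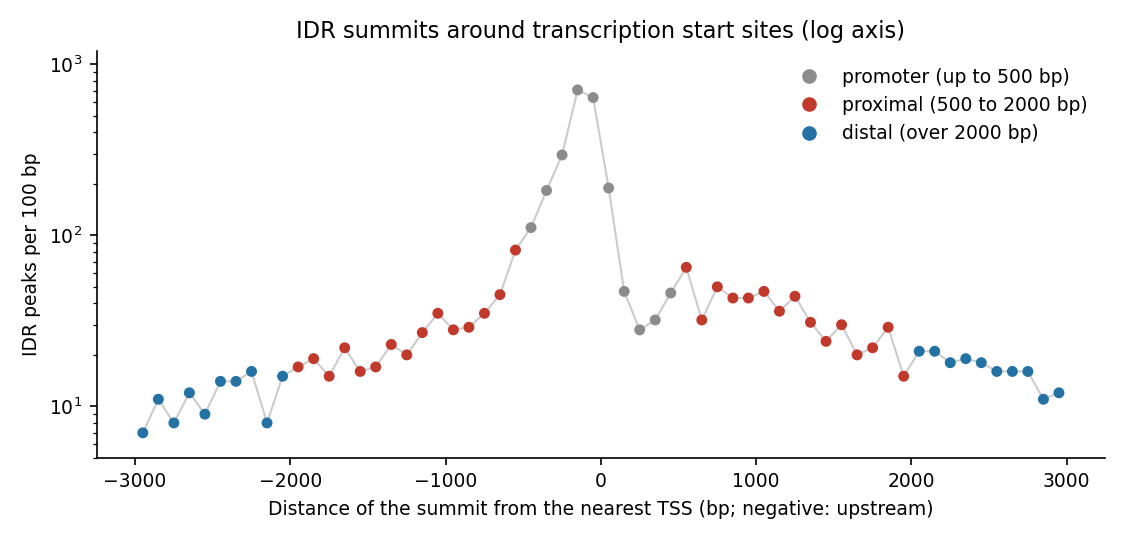
Number of IDR peak summits per 100 bp (log axis) against the signed distance of the summit from the nearest TSS in bp, coloured by distance class. The downstream side has a trough of 28 peaks between 200 and 300 bp, inside the promoter class, and a shoulder that begins with 65 peaks at 500 to 600 bp.

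The distance limits cut a continuous distribution. The members closest to the inner limit lay 502 bp downstream of lncRNA:CR44363 (signal 600, rank 271 of 4599) and of aru (signal 414, rank 574), and the nearest peaks outside it lay at 499 bp from lncRNA:CR44517 (signal 168) and at 498 bp from CG4615 (signal 385). At the outer limit the members lay 2000 bp from CenG1A (signal 116) and 1991 bp from Hacd1 (signal 115), and the peaks outside it 2001 bp from Shrm (signal 235) and 2003 bp from CG3764 (signal 250).

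Most members lay in introns, and almost none in coding sequence. Summits fell in introns in 648 cases (67.4%, interval 64.4 to 70.4), in intergenic DNA in 238 (24.8%), in non-coding exons in 39 (4.06%), in 3′ UTRs in 18 (1.87%), in 5′ UTRs in 16 (1.66%) and in coding exons in 2 (0.208%). Introns are 35.4% of the bases of the zone and coding exons 28.7%, so introns held 57.0 members per Mb and coding exons 0.217 per Mb. Non-coding exons held 56.2 per Mb, intergenic DNA 32.4, 5′ UTRs 23.4 and 3′ UTRs 6.30. In the replicates' own lists introns took 67.1%, 65.4% and 67.1% of proximal summits (mean 66.5% ± 0.984, SD, n = 3) and coding exons 0.312% ± 0.209. Introns took 67.1% of distal summits and 24.2% of promoter summits. The 2 members in coding exons lay 1160 bp downstream of CG10357 (signal 353, rank 801, held by 3 replicates) and 1019 bp downstream of Ubr1, a ubiquitin ligase gene (signal 115, rank 4240, held by 1 replicate).

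In 5′ UTRs the strongest members lay 541 bp downstream of Fbl6 (signal 564) and 799 bp downstream of Raf, the kinase gene of the Ras pathway (signal 503). In 3′ UTRs they lay 1112 bp downstream of CG9837 (signal 413) and 1596 bp downstream of CG7872 (signal 371). In non-coding exons the pair at lncRNA:CR44619 led (signals 1338 and 1258).

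Members lay upstream of the nearest TSS in 430 cases (44.7%, interval 41.6 to 48.0) and downstream in 531. The replicates gave 45.2%, 44.7% and 45.5% upstream (mean 45.1% ± 0.375, SD, n = 3). Upstream bases are 39.3% of the zone, and they held 34.0 members per Mb (interval 30.9 to 37.4) against 27.2 per Mb (interval 24.9 to 29.6) downstream. Upstream members were intronic in 53.5% and intergenic in 42.8%, and downstream members intronic in 78.7%. Upstream did not mean outside the gene: 161 members lay upstream of the nearest TSS and inside the same gene, because another TSS of that gene lay farther upstream. Another 121 lay outside the gene of the nearest TSS and inside a different gene, such as the strongest member. With 1 TSS per gene, its outermost, the upstream share was 35.4%.

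**Figure D2:**
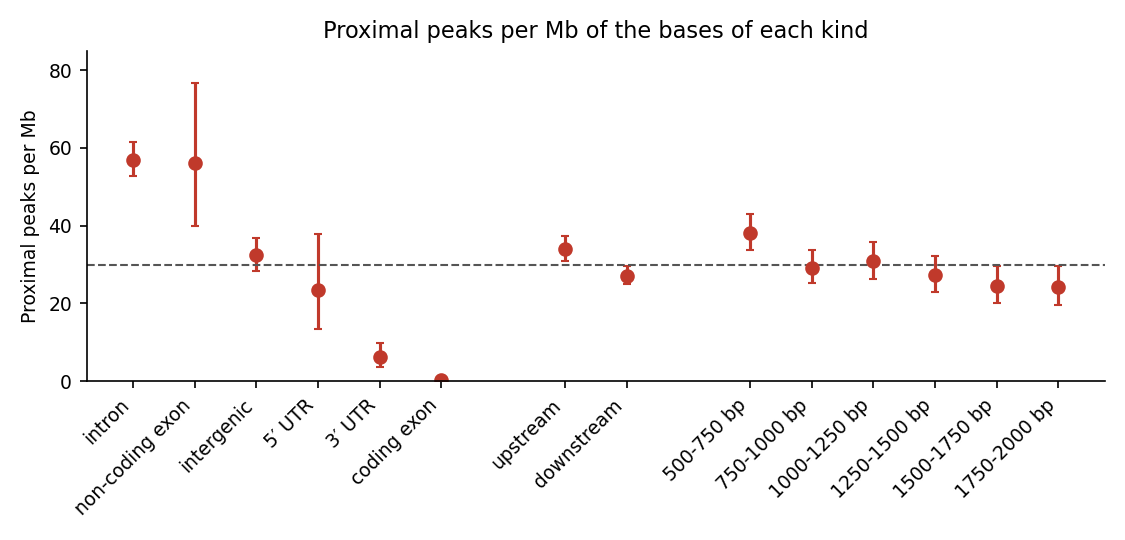
Proximal peaks per Mb of the bases of each annotation class, side and distance bin, with 95% Poisson intervals that cover counting error only. The dashed line is the density of the whole zone, 29.9 per Mb, and introns (57.0) and non-coding exons (56.2) sit above it while coding exons (0.217) sit at the axis.

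The proximal class reached the very top of the list. Its strongest member, rank 2 of all 4599 peaks (chr2L:480883-481315, signal 3147), had its summit 1388 bp upstream of cbt, which encodes a zinc finger factor of the TIEG family, and inside an intron of the neighbouring gene ush, which encodes a cofactor of GATA factors. It ranked 1 in replicate 1, 1 in replicate 2 and 2 in replicate 3. Next came sites in introns of CG11050 (chr2L:6612512-6612896, signal 2152, ranks 9, 4 and 9 in replicates 1, 2 and 3), of Lk6, a kinase that acts on the translation factor eIF4E (chr3R:11760863-11761224, signal 2009, ranks 12, 8 and 11), and of HmgZ, a chromatin protein with an HMG box (signal 1744, ranks 13, 23 and 18). The summit at HmgZ also lay inside its neighbour HmgD, another HMG-box gene. Of the 20 strongest IDR peaks 4 were proximal, and of the 100 strongest 19.

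Among the 20 strongest members were those at Trl, Adf1 and lncRNA:CR46035. The member in an intron of Trl, the gene of GAGA factor, had a signal of 1357 and ranked 36, 28 and 29 in replicates 1, 2 and 3. That at Adf1, which encodes a transcription factor of the MADF family, had a signal of 1297 and ranked 28, 46 and 48. A member in a non-coding exon of lncRNA:CR46035, inside osa, a subunit gene of the Brahma remodelling complex, had a signal of 1087 and ranked 53, 88 and 63. These ranks stayed within the 100 strongest in all 3 replicates. No theme was tested across these genes.

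The other strong members lay at these genes. CG32772 (signal 1523), CG9663 (1184), LPCAT, a lysophospholipid acyltransferase gene (1044), chif, whose product activates the replication kinase Cdc7 (1017), CG3726 (907), CG31635 (901) and mub, an RNA-binding protein gene (879), held theirs in introns. At lncRNA:CR44619 there were 2, one 508 bp downstream (signal 1338) and one 545 bp upstream (signal 1258), both in non-coding exons. Intergenic members lay near lncRNA:CR45643 (signal 1184) and sp3 (966). The ranks that differed most between replicates were at sp3 (152, 117 and 45), at cno, the gene of the junction protein Canoe (176, 31 and 129), and at CG9837 (62, 169 and 78).

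**Figure D3:**
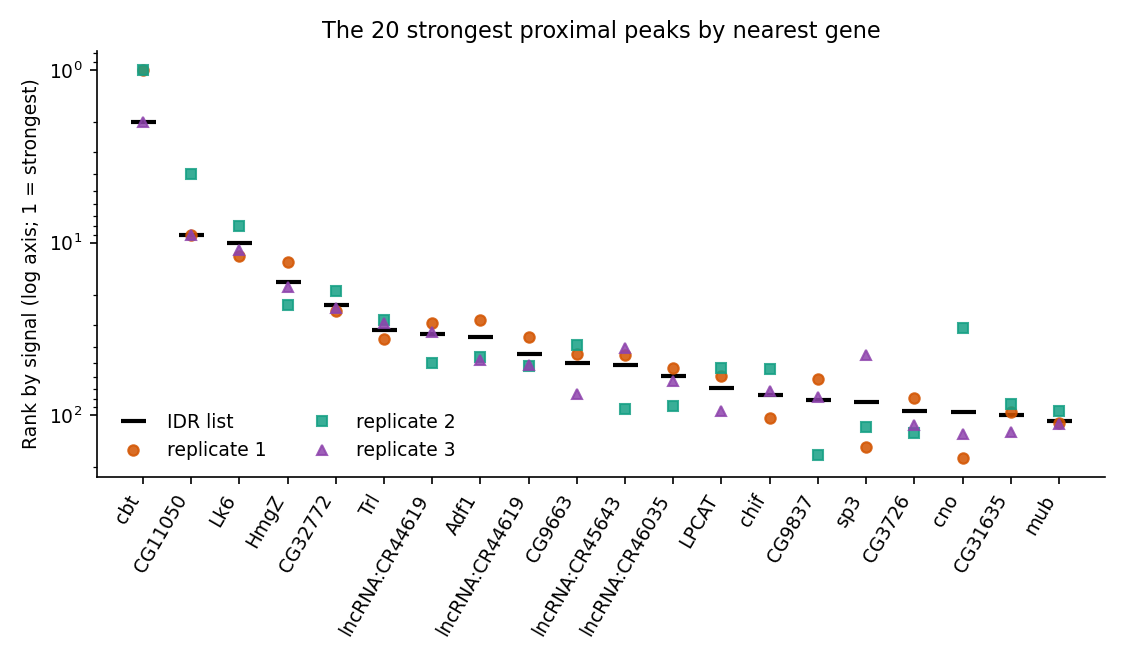
Rank by signal (log axis, 1 is the strongest) of the 20 strongest proximal peaks in the IDR list (black lines) and in the 3 replicates (points), by nearest gene. The cbt member ranks 1, 1 and 2 in the replicates, and cno has the widest spread, from 31 to 176.

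Over all members the signal had a median of 187 (quartiles 139 and 281, lowest 108). Proximal peaks were weaker than promoter peaks and stronger than distal ones, by small amounts. Their mean log2 signal was 7.72, against 7.86 at promoters and 7.54 in distal peaks. The difference from promoter peaks was -0.14 on the log2 scale (SE 0.0311) and that from distal peaks 0.17 (SE 0.0308), with adjusted p = 8.52e-06 and 3.04e-08 in a linear model (n = 4599 peaks). In the 3 replicates' own lists the median of the proximal peaks was lower than that of promoter peaks by 0.20, 0.10 and 0.14 in log2 signal (mean difference -0.15 ± 0.0513 SD over 3 replicates) and higher than that of distal peaks by 0.14, 0.08 and 0.14 (mean 0.12 ± 0.0361). The order of the classes was the same in 3 of 3 replicates.

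Within the class, the median signal lay between 167 and 200 in the 6 distance bins of 250 bp. It was 188 upstream and 187 downstream. It was 190 in introns and 176 in intergenic DNA, and among the smaller sets 161 in 39 members in non-coding exons, 168 in 18 in 3′ UTRs and 235 in 16 in 5′ UTRs, differences that were not tested. Along the ranks the proximal share was 20.1% among ranks 1 to 1150, 21.7% and 22.3% in the next sets of 1150 and 19.4% among the weakest 1149. Complete lists of all 3 replicates had a region at 958 members, and over these Spearman's rho of the ranks was lowest between replicates 1 and 2 (0.755), higher between 2 and 3 (0.797) and highest between 1 and 3 (0.844). These correlations are descriptions, since the lists share a control and neighbouring members share regions.

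A member counted as held when it overlapped 1 of the 4599 strongest regions of a replicate. The IDR list was selected for agreement between these same replicates, so the shares held are a description. Only differences between classes were tested. All 3 replicates held 705 members (73.4%, interval 70.4 to 76.1), beside 73.6% of all IDR peaks, 76.8% of promoter peaks and 68.4% of distal peaks. Another 189 members were held by 2 replicates, 64 by 1 and 3 by none. Replicate 1 held 91.4% of members, replicate 2 84.1% and replicate 3 90.6%. The odds ratio was 0.831 against promoter peaks (adjusted p = 0.0368, logistic model, n = 4599 peaks) and 1.27 against distal peaks (adjusted p = 0.0188). Both calls were lost with log2 signal as a covariate (odds ratios 0.834 and 0.905). Along the IDR list the held share of members fell from 100% among ranks 1 to 1150 through 98.4% and 73.2% to 17.9% among the weakest 1149.

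Summits of proximal peaks were rich in A and T. GC content averaged 34.1% in the window at the summit and 40.8% in a control window 1000 bp away on the side away from the TSS, a dip of 6.70 points (SD over members 10.7). The summit was lower in 73.4% of members. The control windows, used for words and motifs too, were not matched to the summits by annotation class. Coding exons held 0.208% of member summits and are 28.7% of the bases of the zone. The part of coding sequence in the dip, the words and the motifs was not tested. The replicates' own lists gave dips of 6.39, 5.62 and 6.81 points (mean 6.28 ± 0.605, SD, n = 3). Summits of the 3 classes had almost the same GC content, 34.0% at promoters and 34.1% in distal peaks. The promoter dip was larger by 3.87 points (interval of the proximal minus promoter difference -4.70 to -3.05, adjusted p = 7.55e-20, linear model, n = 4599 peaks), its control windows averaging 44.6% GC. Against distal peaks the dip differed by 0.293 points (interval -0.553 to 1.14, adjusted p = 0.497, n = 4599 peaks).

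A search of every 8-base word (a word and its reverse complement counted as 1) that occurred in at least 10 summit windows found 205 of 4859 words more often at member summits than in the control windows (4.22%, exact McNemar test, adjusted p under 0.05) and none less often (0%). At an unadjusted p under 0.05 there were 818 and 16 words, and the filter works against words that are rarer at summits, since a word had to occur there to be tested. Among the called words 2 kinds were frequent. Of the 205, 71 held only A and T (34.6%, against 2.80% of the words tested), led by TTAAAAAA, present in 13.9% of summit and 5.41% of control windows (adjusted p = 2.77e-07, exact McNemar test). A further 26 held CACTG or CAGTG (12.7%, against 1.77% of the words tested), and these were 26 of the 47 called words with 3 or more G or C bases.

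Several of the words with the core differed in the bases around it. CACTGAGA occurred in 4.06% of summit and 0.520% of control windows (adjusted p = 1.96e-05 over all words), CAGTGCAC in 4.27% and 0.624% (5.02e-05), CACTGTGC in 5.62% and 1.35% (9.43e-05), TACACTGA in 4.47% and 0.832% (0.000133) and TACAGTGA in 3.43% and 0.416% (0.000188), all by the exact McNemar test. The bases beside the core were not the same in all of these words. CACTGAGA and TACACTGA can overlap at the same site, as in the printed ImpL2 and Gr89a windows, so the words do not all mark separate sites. Among 6-base words 261 of 2060 were more frequent at summits (12.7%) and 447 less frequent (21.7%). Of the 8 that contain the core, 5 were more frequent and none less. ACAGTG was the strongest of them, in 21.6% of summit and 7.70% of control windows (adjusted p = 1.14e-16, exact McNemar test).

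The core itself was singled out after these words were seen, so its values are a description. CACTG or CAGTG occurred in 480 of 961 summit windows (49.9%, interval 46.7 to 53.2) and in 278 control windows (28.9%, interval 26.1 to 31.9). The replicates' own proximal lists gave a mean of 48.8% ± 1.03 at summits and of 28.6% ± 1.04 in controls (SD, n = 3). Promoter summits held it in 41.6% (controls 32.7%) and distal summits in 53.2% (controls 26.3%). Members with 2 or more matches were 13.4% at summits and 4.68% in controls. The share at summits was 56.0% in the strongest 193 members and 43.4% in the weakest 189, 50.6% in introns and 49.6% in intergenic DNA, 47.9% upstream and 51.6% downstream of the TSS.

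The core was most frequent 60 to 100 bp to either side of the summit. In 40-bp bins along the members, matches numbered 71 at the summit itself (1.85 per kb), 151 in the bin 60 to 100 bp towards the TSS (3.93 per kb) and 186 in the bin 60 to 100 bp away from it (4.84 per kb). Beyond 300 bp the rate lay between 1.51 and 2.11 per kb, a range that holds the rate at the summit. GC content was also lowest in the central bin, at 31.6%, and its part in the lower rate there was not tested. The distal class showed the same pair of maxima, at 5.50 and 5.66 per kb, and in promoter peaks the TSS side reached 3.85 and the other side 2.84 per kb in the same bins. In windows that reached only 50 bases to each side, CACTGAGA was 0.937 percentage points above its control and no longer passed the exact McNemar test (adjusted p = 0.127).

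**Figure D4:**
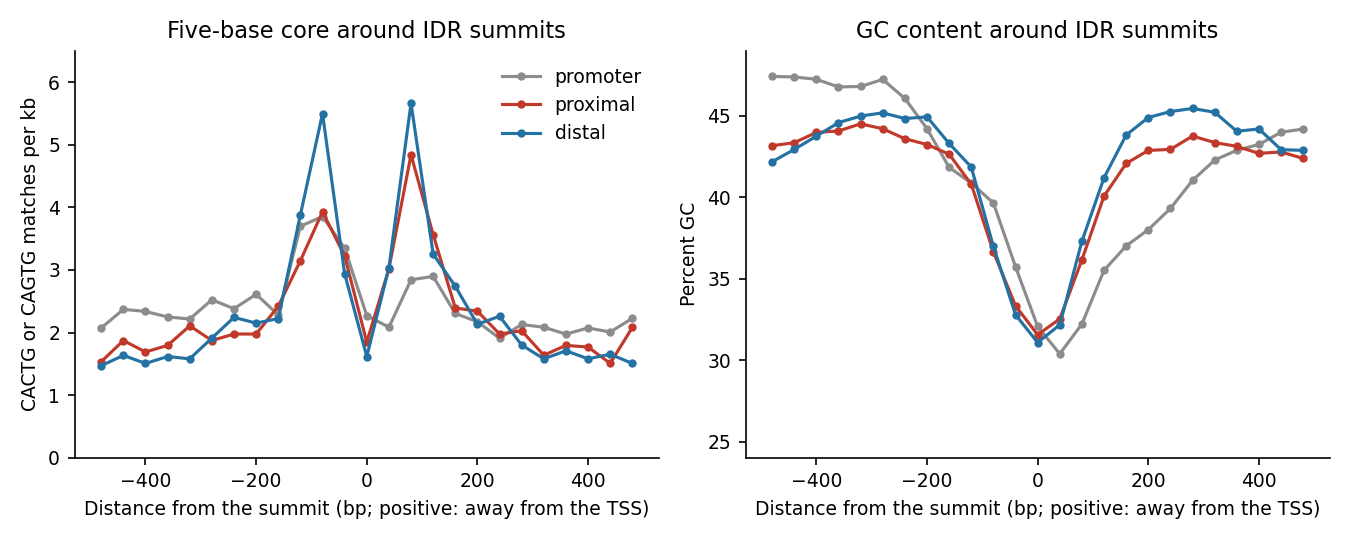
Left, matches to CACTG or CAGTG per kb, and right, percent GC, in 40-bp bins by distance from the summit in bp (positive values point away from the nearest TSS), for the 3 distance classes of IDR peaks. Proximal peaks have a local minimum of 1.85 matches per kb at the summit between maxima of 3.93 and 4.84, and their GC content is lowest at the summit (31.6%).

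Of 18 motifs searched on both strands, all known ones except CACTGAGA, 3 passed the test at member summits (16.7%). TATAAA, the TATA box, occurred in 36.9% of summit and 24.97% of control windows (adjusted p = 4.09e-07, exact McNemar test). TAATTA, the homeodomain core, occurred in 21.7% and 15.1% (adjusted p = 0.00123, exact McNemar test). Without replicate 3, meaning in the IDR peaks that both other replicates held, TAATTA lost its call at 4.95 points above its control. Both words lost theirs in the stronger 50% of the IDR peaks (7.48 and 5.61 points for TATAAA and TAATTA). Both consist only of A and T, as do many of the called words, and the part of base composition was not tested. The third was CACTGAGA, with adjusted p = 5.09e-07 in the exact McNemar test over the motifs, a word taken into the list from earlier results on these peaks and so not independent evidence. The insulator and pioneer motifs did not pass: the CTCF core AGGTGGC was at 2.50% and 1.56%, GAGAGAG at 2.81% and 4.27%, and the Zelda word CAGGTAG at 1.14% and 1.35%.

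Proximal peaks held the DRE and Motif 1, core promoter elements, less often than promoter peaks did. The classes are set by distance from a TSS, so a lower share of core promoter elements in proximal peaks is partly built into the comparison. Against promoter peaks, 6 of the 18 motifs differed (33.3%, logistic model over all peaks, adjusted over motifs and both comparisons). The DRE, TATCGATA, was in 0.416% of proximal and 6.19% of promoter windows (adjusted p = 9.85e-17, n = 961 and 2278 peaks), and the related BEAF word CGATA, which lies inside it, in 20.4% and 37.1% (4.23e-20). Motif 1, GGTCACAC, was in 0.312% and 3.20% (6.68e-08), Motif 7, ATCGCTG, in 1.14% and 2.90% (0.00705), and the E-box CAGCTG in 6.35% and 9.96% (0.00399). Motif 7 lost its call without replicate 2 (1.44 points below promoter peaks) and without replicate 3 (1.23 points), in the stronger 50% of the IDR peaks, in those held by all 3 replicates, with 1 TSS per gene and in windows of 50 bases to each side. The E-box lost its call without replicate 3 (3.10 points below promoter peaks), in the stronger 50% and in windows of 50 bases to each side. The TATA box was in 36.9% of proximal and 40.7% of promoter windows (odds ratio 0.852, interval 0.730 to 0.995), which missed the threshold after adjustment (adjusted p = 0.144, n = 961 and 2278 peaks). Of the 6, only CACTGAGA was more frequent in proximal peaks, 4.06% against 1.89% (adjusted p = 0.00399, n = 961 and 2278 peaks), and this call was lost in the stronger 50% of the IDR peaks. The word was taken from earlier results on these peaks, so its call is not independent evidence. For the DRE the 3 replicate lists gave 0.198%, 0.310% and 0.534% in proximal and 5.55%, 7.43% and 6.23% in promoter peaks, so the groups did not overlap. The same held for most of the 18 motifs, also for several that were not called, such as the TATA box (36.3% to 38.6% in proximal and 39.6% to 40.1% in promoter peaks). A lack of overlap by itself therefore does not set the called motifs apart. At their own control windows members held the DRE in 0.312%.

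Against distal peaks only CACTGAGA differed, 1 of 18 motifs (5.56%). The call is not independent evidence, since the list took this word from earlier results on these peaks. The word occurred in 4.06% of proximal and 7.79% of distal windows (odds ratio 0.50, interval 0.343 to 0.729, adjusted p = 0.00157, logistic model, n = 961 and 1360 peaks), and in windows of 50 bases to each side the call was lost. In the replicates' own lists its share was 5.06%, 4.55% and 3.95% in proximal peaks (mean 4.52% ± 0.556, SD, n = 3), 1.63% ± 0.192 in promoter peaks and 7.58% ± 0.582 in distal peaks. The classes did not overlap over the 3 replicates. Nor did proximal and distal peaks for most of the 18 motifs, so a lack of overlap does not set CACTGAGA apart. Among them were the E-box (6.15%, 6.40% and 7.15% against 4.54%, 4.89% and 4.48%) and the TATA box (36.3% to 38.6% against 38.7% to 39.9%). Neither was called against distal peaks. For the other 17 motifs the intervals of the odds ratio against distal peaks included 1, except TAATTA at 1.28 (interval 1.04 to 1.57, adjusted p = 0.0923, n = 961 and 1360 peaks). None of the 20 strongest members held CACTGAGA.

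Proximal peaks lay close to other CG1602 peaks. The next IDR summit was at a median of 2622 bp (quartiles 1019 and 8840), against 4885 bp for promoter and 4731 bp for distal peaks, and within 2000 bp for 422 members (43.9%, against 28.2% and 28.1%). The rule itself places members within 2000 bp of a TSS, where promoter peaks lie, so these distances are a description with no test. Of those 422, the next peak was a promoter peak in 203, another proximal peak in 167 and a distal peak in 52. For 91 members it lay within 500 bp, and such neighbours can overlap the same replicate region and then share its value.

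The nearest gene of a member also held a promoter peak in 331 cases (34.4%, interval 31.4 to 37.5), beside 17.1% of all annotated genes. The 34.4% is a share of members, where a gene with several members counts repeatedly, and the 17.1% a share of genes. For distal peaks the share was 24.6%. The odds ratio was 1.61 (interval 1.35 to 1.94, p = 2.38e-07, logistic model, n = 961 and 1360 peaks), 1.36 with the distance to the next peak as a covariate (p = 0.00169) and 1.48 with the number of TSS of the gene (p = 6.05e-05). In the stronger 50% of the IDR peaks it was 1.35 and missed the threshold (p = 0.0571, n = 481 members). Members whose nearest gene held a promoter peak had a median signal of 193, against 184 for the rest. The remaining 630 members (65.6%) were nearest to a gene with no IDR summit at any of its own TSS.

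The members were nearest to 818 genes, 4.56% of the 17947 annotated. A single member was nearest to each of 705 genes, 2 to each of 93, 3 to each of 10 and 4 to each of 10, and none had 5. The genes with 4 members and the strongest signals were lncRNA:CR45643, NFAT, CHES-1-like, shn, aop and CG42258. At lncRNA:CR45643 all 4 were intergenic, with signals of 1184, 636, 524 and 162, 3 of them upstream of the TSS and 1 downstream. That with a signal of 162 overlapped no region in replicates 1 and 3. In replicate 2 the strongest region it overlapped, rank 545, was also that of the member with 524. NFAT, the gene of a transcription factor of the NFAT family, held signals of 876, 475, 158 and 140 in introns, all upstream of the nearest TSS. The summits with 475 and 140 were neighbours that overlapped 1 region in each replicate and so share their replicate values. CHES-1-like, a forkhead gene, held signals of 526, 415, 151 and 112.

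Several lists of signalling genes had more members near them than the average gene, and the 5 lists of ribosomal, translation and proteasome genes had none. Of 21 genes of the BMP and activin pathway, through which secreted ligands act on Smad proteins, 8 were nearest to a member (38.1%, against 4.56% of all genes). Because a gene with many TSS or isolated TSS owns more of the zone, the density was also counted: 14 members lay in the 0.0740 Mb nearest to these genes, 189 per Mb (interval 103 to 317) against 29.9 per Mb over the whole zone. With 1 TSS per gene, 4 of the 21 genes were nearest to a member. The lists were drawn up with earlier results of these peaks known and no set test was made.

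The BMP members lay at genes of receptors, of Smad proteins, of nuclear factors and of a secreted modulator. Among receptors, the type II receptor gene wit held signals of 274 and 186, the stronger with ranks 1223, 1780 and 855 in replicates 1, 2 and 3, and the type II receptor gene put a signal of 231 with ranks 1686, 1872 and 1959. The type I receptor gene tkv held signals of 198 and 137. Among intracellular and nuclear factors, Mad, the Smad transducer, held a member 656 bp upstream with a signal of 578 and ranks 295, 342 and 313. At brk, a repressor of BMP targets, signals of 541 and 328 lay in summits 200 bp apart that shared a replicate region and fell in an intron of a different gene, and shn, a zinc finger cofactor of Mad, held signals of 482, 290, 176 and 136 along its introns. The inhibitory Smad gene Dad held 192 and magu, a secreted modulator, 206. All but 1 of these 14 members were in introns, that at Dad being intergenic, and only magu also held a promoter peak.

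In the list of EGFR, FGFR and Ras genes, which signal through receptor tyrosine kinases, 6 of 28 genes were nearest to a member (21.4%), with 13 members and 136 per Mb (interval 72.2 to 232). The FGF ligand gene ths had a signal of 309 and the FGF receptor gene htl 159. Raf had 2 members 199 bp apart (signals 503 and 247). The feedback inhibitor gene sty had 118. The nuclear effectors of the pathway, the ETS factor genes pnt and aop, an activator and a repressor, had 4 members each, with signals from 112 to 188 at pnt and from 117 to 376 at aop.

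In the Hippo pathway, which restrains growth, 4 of 12 genes were nearest to a member (33.3%): the cadherin genes ds (signal 406) and ft (250), the upstream regulator ex (163) and the kinase cofactor mats (122). The members at ds, ft and ex were intergenic. In the Wnt pathway 5 of 22 were (22.7%): the ligand gene Wnt5 (254), the receptor genes fz (462) and fz3 (109), the coreceptor gene arr (165) and the kinase gene sgg (169). The 4 Hippo members gave 144 per Mb (interval 39.4 to 370) and the 5 Wnt members 63.7 per Mb (interval 20.7 to 149), so the Wnt interval included the density of the zone. Of these 9 members, those at mats, sgg and fz3 were held by 2 of 3 replicates and the rest by all 3. Notch genes had 1 of 22 near a member and Hedgehog and segment polarity genes 1 of 18, close to the share of all genes.

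Other regulatory lists had the counts that follow. Ecdysone response genes had 4 of 20, the nuclear receptor genes Hr4 (signal 241), Hr3 (194) and Hr38 (116) and the coactivator gene tai (216), of which Hr38 was held by 1 replicate. Polycomb genes had 2 of 19, ph-d (642) and ph-p (370), and trithorax and Brahma genes 2 of 18, tna (376) and trx (118, held by 1 replicate). Insulin and TOR genes had 2 of 15, the receptor gene InR (576) and Pi3K92E (213). Apoptosis genes had 1 of 13, the inhibitor gene Diap1 (413), and JAK-STAT genes 1 of 8, the transcription factor gene Stat92E (341). Cell cycle and replication genes had 2 of 34 (5.88%, against 4.56% of all genes), the cyclin gene CycE (394) and the kinase gene Cdk4 (235). The circadian list had 2 of 9, dco (216) and Pdp1 (131). For each of these 8 lists the interval of the density included the 29.9 per Mb of the whole zone.

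By contrast, none of 93 cytoplasmic ribosomal protein genes, 73 mitochondrial ribosomal protein genes, 48 proteasome genes, 44 translation initiation factor genes or 33 aminoacyl-tRNA synthetase genes was nearest to a member. IDR summits lay within 500 bp of a TSS in 53, 31, 8, 13 and 12 of them. Each list owns little of the zone, 0.0774 Mb for the cytoplasmic ribosomal proteins, where a count of 0 allows up to 47.7 per Mb (upper bound of the 95% Poisson interval). For each of the 5 lists by itself this bound, 47.7 to 77.7 per Mb, was above the 29.9 of the zone as a whole. Together the 5 lists own 0.326 Mb, where a count of 0 allows up to 11.3 per Mb, but they were put together after their counts were seen, so this is a description with no test. Not every list of broadly needed genes was empty. Of 87 oxidative phosphorylation genes 3 were nearest to a member, with 4 members and 34.2 per Mb (interval 9.33 to 87.7). That interval included the density of the zone. For the gap and pair-rule genes, 0 of 16, the bound was 77.5 per Mb. Chemosensory receptor and odorant binding genes had 3 members in 0.413 Mb, 7.27 per Mb (interval 1.50 to 21.2), which was below the zone's density.

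Among genes without a protein product, 135 of 1945 long non-coding RNA genes were nearest to a member (6.94%), with 149 members and 40.7 per Mb (interval 34.5 to 47.8). Transfer RNA genes had 12 members (40.1 per Mb, interval 20.7 to 70.0), led by tRNA:Lys-TTT-1-1 (signal 486), and snoRNA and scaRNA genes 6. Antisense RNA genes had 6 members, 10.1 per Mb (interval 3.71 to 22.0). Over all members the nearest gene was protein-coding in 779 (81.1%) and a non-coding RNA gene of the ncRNA class in 164 (17.1%).

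**Figure D5:**
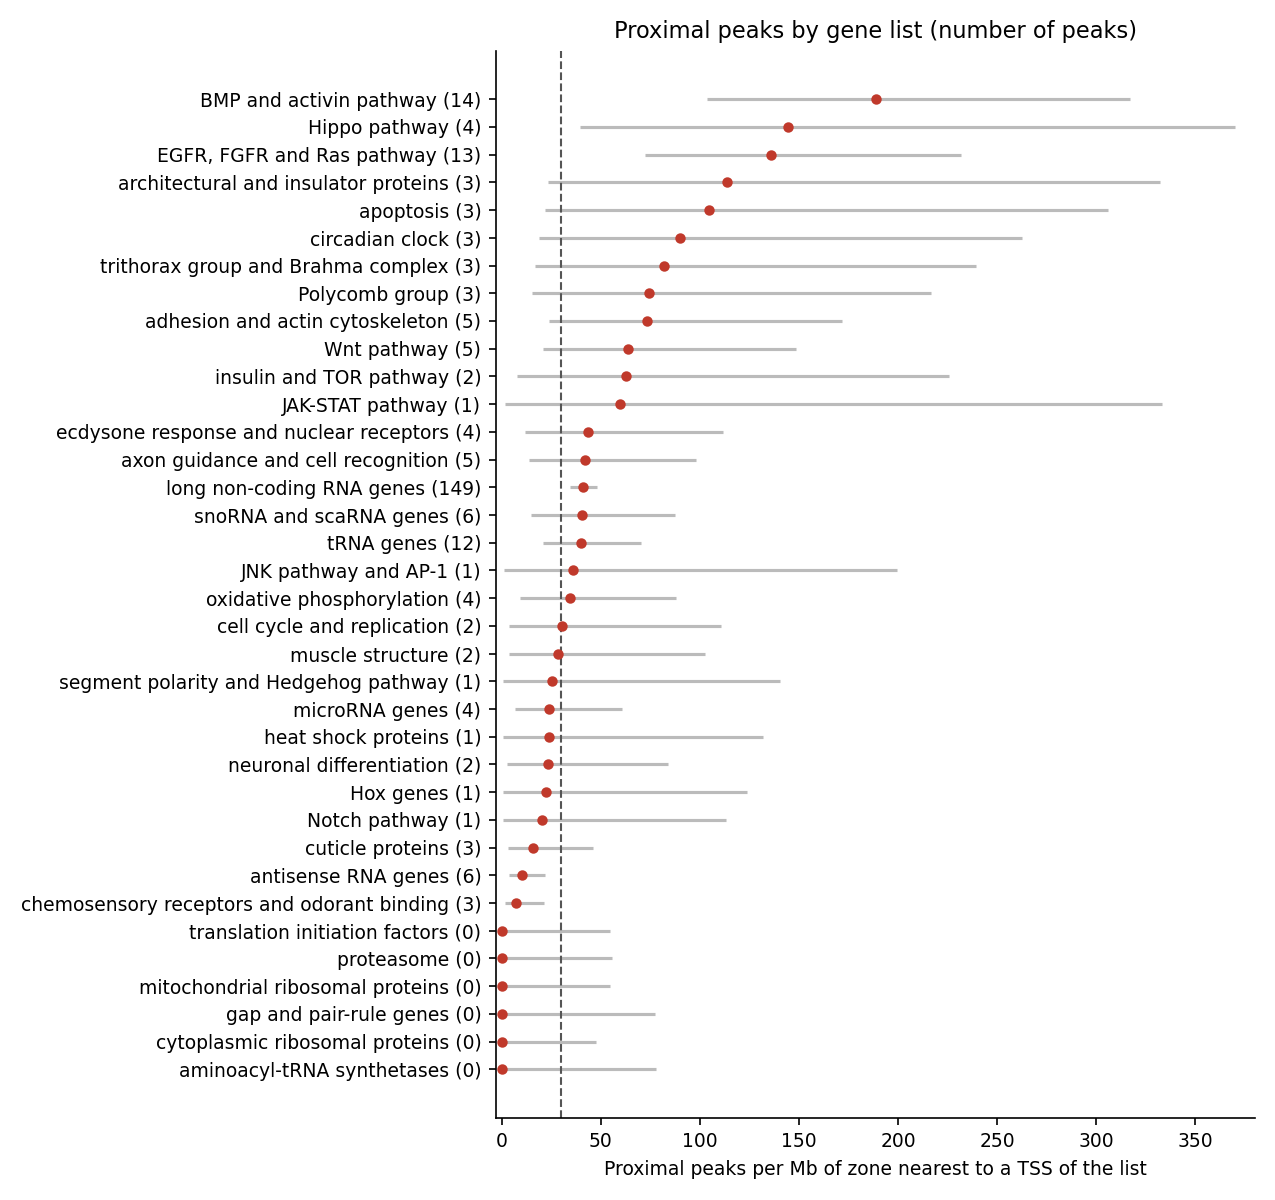
Proximal peaks per Mb of zone whose nearest TSS belongs to each gene list, with 95% Poisson intervals that cover counting error only and the number of peaks in parentheses; the dashed line is the whole zone (29.9 per Mb). The BMP and activin (189), Hippo (144), EGFR, FGFR and Ras (136) and long non-coding RNA (40.7) lists have intervals above the line. The 5 ribosomal, translation and proteasome lists and the gap and pair-rule list sit at 0.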

How the data were processed

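ChIP-seq peak lists of 3 replicates, of their pool and of the IDR selection were used in build dm6. The authors deposited for each region a signal value relative to a shared control, per the file headers. Its scale is not known, and the processing software is not given in the sources used here. Depth is unknown. Signal served for ranking within a list and as log2 values. Lists in dm3 were not used. Genes came from Ensembl release 115 (17947 genes on the main arms, without pseudogenes and transposable elements) and sequence from the RefSeq copy of dm6. The members, gene lists and motifs were chosen with earlier results of these data known.

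Replicates were compared on their 4599 strongest regions. Tests were linear models with HC3 errors, logistic models with likelihood ratio tests over all 4599 peaks, and exact two-sided McNemar tests of windows of 100 bases on each side of the summit against windows 1000 bp away, with Benjamini-Hochberg adjustment and a threshold of 0.05. They were tested on simulated data. Peaks are not replicates, intervals (95%, Clopper-Pearson or Poisson) cover counting error only, and neighbouring peaks are not independent. Named genes were the nearest genes of the 20 strongest members, the 2 strongest per annotation class, up to 3 per gene list and all behind counts of 5 or fewer, up to 6 genes with 4 members and the members next to each distance limit. The further BMP and Ras genes and several members of other lists were named after their values were seen, and the printed sequences were lengthened to the tested window after the position of CACTG had been seen. Alternatives were each replicate left out, other peak sets, TSS sets, distances, windows, word lengths and covariates. A replicate was left out by keeping the IDR peaks that both other replicates held. The list, its summits and its signals still came from all 3, so stability of the list itself was not tested. The software was statsmodels 0.14.6, scipy 1.17.1, pandas 2.3.3, numpy 2.4.6 and matplotlib 3.10.9 under Python 3.11.15.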

Additional observations from a re-analysis of the deposited data

How the results depend on the processing

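The signal differences from promoter and distal peaks and the larger GC dip of promoter peaks kept their direction and call under the alternatives run, and 4 to 7 motifs differed from promoter peaks. Leaving out each replicate in turn gave odds ratios of being held (by both other replicates) of 0.752 to 0.912 against promoter and 1.18 to 1.29 against distal peaks, a held share of 77.7% to 84.0%, 133 to 171 called words (3.94% to 4.49% of the words tested) and an upstream share of 44.7% to 45.6%. The call of being held against promoter peaks was lost without replicates 2 and 3, and that against distal peaks without replicates 1 and 3. Both were also lost in the stronger 50% of the peaks (odds ratios 0.859 and 1.51, share held 99.2%), with 1 TSS per gene (0.877 and 1.16), with an overlap of at least 50% of the peak (0.891 and 1.22), with summits within 500 bp thinned to the strongest (0.839 and 1.23, an alternative added after seeing the data, which also gave 44.0% upstream) and with log2 signal as a covariate, where the first was 0.834 and the second reversed to 0.905. With the zone narrowed by 250 bp at both limits the ratio against distal peaks was 1.16 and its call was lost.

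The proximal share was 18.9% with TSS of protein-coding genes, 19.3% with 1 TSS per gene, 12.9% in the narrowed zone, 11.1% beyond 1000 bp and 24.2% in all pooled regions. The stronger 50% of the peaks gave a GC dip of 7.40, a difference from distal peaks of 1.32 points that passed the test, 1 motif, called words at 5.98% of the 1689 tested, 69.0% in introns, 434 nearest genes and an odds ratio of 1.35 for a promoter peak at the nearest gene, which missed the threshold. With protein-coding TSS the GC difference from distal peaks reversed to -0.11, upstream was 47.7% and introns 69.9%. With 1 TSS per gene they were 35.4% and 62.2%. The narrowed zone gave 97 words (4.08% of those tested), 40.3% upstream, 70.1% in introns and 527 genes. A control window towards the TSS gave a dip of 7.60, a difference from distal peaks of 1.30 that passed, and 10 motifs; 1 at 2000 bp gave 8.28 and 5 motifs. Windows of 50 bases to each side gave a dip of 8.48, a difference reversed to -0.29, and 2 motifs against distal peaks. There were 708 words of 6 bases called (34.4%). The causes were not tested. Of the tests of single motifs under the alternatives, 108 kept their call and 15 lost it, and the count of BMP and activin genes stayed within 1.5 times in 9 and moved in 1. No paired analysis was possible because the study has 1 group. Depth is unknown and limits what weak peaks can show.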

Other observations

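Members numbered 184 on 2L, 156 on 2R, 194 on 3L, 236 on 3R, 188 on X and 3 on the fourth chromosome. The whole zone held 29.9 per Mb. The density was lowest on the fourth chromosome, 11.9 per Mb (interval 2.44 to 34.6), 25.4 per Mb on 2R (interval 21.6 to 29.8) and highest on X, 33.9 per Mb (interval 29.2 to 39.1).

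Genes nearest to a member had a median of 2 annotated TSS, against 1 for genes nearest to a distal peak and 1 over all genes. Most peaks, 85.8% of members and 85.2% of all IDR peaks, had the same width of 416 bp, so width carried little information.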
